A study of Oryctolagus cuniculus with 4 samples.

Results

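The small leucine-rich proteoglycans were followed in 4 libraries of rabbit ear hypertrophic scar (HS), a raised scar that forms when healing skin lays down too much collagen. The family was taken as 10 genes, chosen by symbol (DCN, LUM, BGN, FMOD, OGN, ASPN, PRELP, OMD, PODN and EPYC), and 9 of them were found among the 13913 genes of the table. BGN was not analysed here. The libraries were made with the droplet method of 10x Genomics from the ventral epidermis and dermis of the ear, and the table gave 1 value per gene and library rather than values per cell. The HS group had 2 libraries from scars that received nothing. The drug-loaded MNs group had 2 libraries from scars that received 1 patch of drug-loaded microneedles (MNs) weekly for 3 weeks. The tips break off and remain in the scar, where they release a prodrug of 5-fluorouracil acetic acid, a relative of 5-fluorouracil, which blocks cell division. All rabbits were wild-type females, aged 10 to 12 weeks when bought, whose ear wounds had been cut down to the cartilage and cleared again of new tissue so that scars formed. The tissue was taken 1 week after the third patch, and 2 scars per group were used. Whether the scars of a group came from separate rabbits was not given, so a p-value here measures the spread between scars. No libraries with drug-free MNs were analysed here, and the effects of the drug and of the needles cannot be told apart.

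Small leucine-rich proteoglycans are secreted proteins built around a curved array of leucine-rich repeats, which lies against collagen fibrils and sets how thick they grow and how far apart they lie. Many carry chains of chondroitin, dermatan or keratan sulfate, and several also hold growth factors such as TGF-beta in the matrix. In skin they are made mainly by dermal fibroblasts. Decorin (DCN) and asporin (ASPN) belong to class I with biglycan (BGN). Lumican (LUM), fibromodulin (FMOD), PRELP and osteomodulin (OMD) belong to class II, osteoglycin (OGN) and epiphycan (EPYC) to class III, and podocan (PODN) to a separate, non-canonical class.

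All 9 genes had a higher fitted value in drug-loaded MNs than in HS, and 5 of them (DCN, LUM, OGN, ASPN and PODN) did so with no overlap between the groups. The other 4 (FMOD, PRELP, OMD and EPYC) overlapped. Among all 9348 tested genes, 64.6% had a log2 fold change above 0 and 26.6% were higher without overlap. The same 5 genes had an unadjusted p under 0.05, all higher, which held for 7.26% of all tested genes. With the Benjamini-Hochberg adjustment over all genes, 0 of the 9 passed 0.05 in limma, where adjusted p ran from 0.27 for ASPN to 0.935 for EPYC. Of all tested genes 4 passed, which is 0.0428%. The median log2 fold change of the 9 genes was 0.65, beside 0.12 for all tested genes. All 9 had passed the filter on low values, which used the mean over the 4 libraries.

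Levels are given in ppm, parts per 1000000 of the library total. Added over the 9 genes, the level was 3675.7 and 4395.5 ppm in the HS libraries and 6871.0 and 6855.4 ppm in the drug-loaded MNs libraries. As a share of all expression this was 0.368% and 0.440% under HS against 0.687% and 0.686% after treatment. The difference of the sums was 0.77 on the log2 scale. DCN and LUM together made up 76.9% to 83.5% of the sum in each library, so the sum mainly follows these genes. In a table of this kind, fewer cells of a type and less RNA per cell cannot be told apart.

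**Figure D1:**
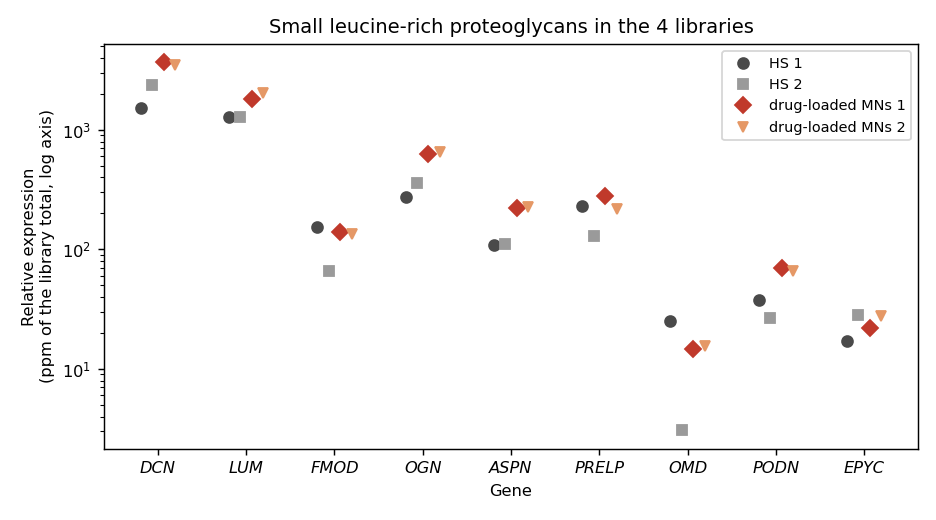
Relative expression of the 9 genes (ppm of the library total, log axis) in each of the 4 libraries, 1 point per library. For DCN, LUM, OGN, ASPN and PODN both drug-loaded MNs points lie above both HS points. For OMD the HS points stand 8.18-fold apart with the drug-loaded MNs points between them.

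In class I, DCN (ENSOCUG00000006969), the decorin gene, stood at 1530.3 and 2385.4 ppm in HS and at 3673.3 and 3474.9 ppm in drug-loaded MNs. Decorin wraps collagen fibrils and binds TGF-beta. Every drug-loaded MNs value was above every HS value, although the HS libraries differed 1.56-fold. The mean went from 1957.9 ± 604.6 to 3574.1 ± 140.3 ppm (SD, n = 2 each), a ratio of 1.83, and the fitted log2 fold change was 0.90, with an SE of 0.29 and a limma adjusted p of 0.417. The estimate was 0.58 without HS replicate 1 and 1.22 without HS replicate 2.

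ASPN (ENSOCUG00000028053) is the asporin gene, whose protein has a run of aspartates near its start and competes with decorin for collagen. Its replicates lay 1.025-fold apart in HS, where only LUM was closer, and 1.026-fold apart in drug-loaded MNs. The ASPN level was 108.5 and 111.2 ppm in HS and 222.3 and 228.2 ppm in drug-loaded MNs, so the groups lay far apart for the spread within them. The log2 fold change was 1.03 (95% interval 0.55 to 1.51, SE 0.21), at a limma adjusted p of 0.27. With any 1 library left out it stayed between 1.01 and 1.05.

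In class II, LUM (ENSOCUG00000005592), the lumican gene, stood at 1294.5 and 1284.1 ppm in HS and at 1826.6 and 2028.7 ppm in drug-loaded MNs. Lumican is a keratan sulfate proteoglycan that limits the thickness of collagen fibrils. The groups did not overlap, and the HS libraries differed by only 1.01-fold. Its log2 fold change was 0.58, with an SE of 0.23 and a limma adjusted p of 0.519. The estimate was smaller than that of DCN, but the log2 ratio of LUM to DCN overlapped between the groups, at -0.24 and -0.89 for the HS libraries and -1.01 and -0.78 for the treated ones.

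The 3 other class II genes were spread widely over the HS libraries. FMOD (ENSOCUG00000009702) encodes fibromodulin, which binds collagen beside lumican and steers its crosslinking. It stood at 155.3 and 65.4 ppm in HS and at 141 and 135 ppm in drug-loaded MNs, so HS replicate 1 was the highest library and HS replicate 2 the lowest. Its log2 fold change was 0.45, with a 95% interval from -0.44 to 1.34 (limma adjusted p 0.832), and it was -0.17 without HS replicate 2.

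PRELP (ENSOCUG00000009707), whose protein links basement membranes to collagen through a stretch rich in arginine and proline, stood at 232.6 and 128.9 ppm in HS and at 278.6 and 219.5 ppm in drug-loaded MNs. HS replicate 1 lay between the drug-loaded MNs libraries and HS replicate 2 lay below them. The log2 fold change was 0.51, with a 95% interval from -0.22 to 1.24 (limma adjusted p 0.743). Leaving out HS replicate 2 gave 0.09 and leaving out HS replicate 1 gave 0.93.

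OMD (ENSOCUG00000016193), the osteomodulin gene, is best known from bone and other mineralised tissue. It stood at 25.0 and 3.06 ppm in HS, 8.18-fold apart, and at 14.7 and 15.6 ppm in drug-loaded MNs. The log2 fold change of 0.65 had a 95% interval from -1.08 to 2.38 (limma adjusted p 0.877). It was 1.99 without HS replicate 1 and -0.69 without HS replicate 2, so these libraries hold no direction for OMD.

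In class III, OGN (ENSOCUG00000009017) encodes osteoglycin, also called mimecan, a regulator of collagen fibrils in skin and cornea. Its level was 274.3 and 362.3 ppm in HS and 623.6 and 659.5 ppm in drug-loaded MNs, with no overlap. The means stood at a ratio of 2.02, and the log2 fold change was 1.02, with an SE of 0.23 and a limma adjusted p of 0.314. The estimate ran from 0.82 to 1.22 with 1 library left out. EPYC (ENSOCUG00000013389), the gene of epiphycan from growth-plate cartilage, had the smallest fitted log2 fold change, at 17.1 and 28.2 ppm in HS and 21.9 and 27.5 ppm in drug-loaded MNs. The highest EPYC value was that of HS replicate 2. The log2 fold change was 0.15, with a 95% interval from -0.57 to 0.87 (limma adjusted p 0.935).

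PODN (ENSOCUG00000002562) encodes podocan, which binds collagen and slows the growth of smooth muscle cells. It had the largest fitted fold change of the family, with 38.0 and 26.9 ppm in HS and 69.3 and 66.3 ppm in drug-loaded MNs. The groups did not overlap, and the SE was 0.25 on a log2 fold change of 1.06, at a limma adjusted p of 0.314. Of all tested genes, 2.16% had a larger one.

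**Figure D2:**
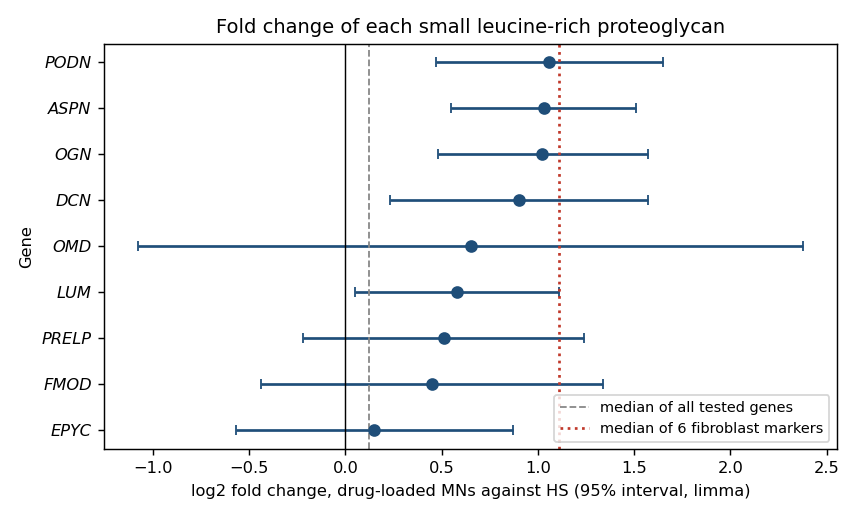
Fitted log2 fold change of each gene, drug-loaded MNs against HS, with its 95% interval from limma (2 libraries per group). The intervals of PODN, ASPN, OGN, DCN and LUM lie above 0, those of the other 4 genes span it, and all 9 estimates lie between the median of all tested genes (0.12) and that of 6 fibroblast markers (1.11).

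The drug-loaded MNs libraries were close to each other for every member. None of the 9 genes differed more than 1.5-fold between them, and the widest gap was 1.27-fold in PRELP. In HS 5 of 9 genes did (DCN, FMOD, PRELP, OMD and EPYC). The share of all tested genes past this cut was not computed, so these counts cannot be read as a trait of the family. The HS libraries did not differ in 1 direction: 5 genes were higher in HS replicate 1 and 4 in HS replicate 2.

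FMOD, PRELP and OMD shared a pattern over the libraries that did not follow the groups, with HS replicate 2 far below the other 3. The summed level of cartilage cell markers was also lowest in HS replicate 2. The dissected layers lie directly on the ear cartilage. Of 14 chondrocyte markers, 8 were found (CNMD, COL11A2, COL9A1, COL9A2, MATN1, MATN3, SOX9 and UCMA), and their summed level was 1119.5 ppm in HS replicate 1, 125.1 ppm in HS replicate 2, and 491.6 and 398.3 ppm in drug-loaded MNs. COL2A1 and ACAN, which define cartilage, were not analysed here, and UCMA was listed at 0 in HS replicate 2 and drug-loaded MNs replicate 1. Of these 8 genes, 5 were lowest in HS replicate 2, and SOX9, MATN1 and UCMA were not, or were equally low elsewhere. Of the 6 chondrocyte genes tested, 4 had a fitted log2 fold change above 0 and 0 had an unadjusted p under 0.05 in limma. For 3 of those 4 (COL9A1, COL11A2 and CNMD) the mean level was lower in drug-loaded MNs, since the fit on the log scale follows the low values of HS replicate 2. Their median log2 fold change was 0.60, but 3.06 without HS replicate 1 and -1.40 without HS replicate 2. The filter on low values was redone each time and kept 5 and 7 chondrocyte genes, so these medians cover different genes. By p, COL9A2 (1.45), MATN3 (-0.72) and SOX9 (-0.28) came first, all 3 genes of cartilage matrix or its control. For tendon-like or perichondrial fibroblasts, 6 of 8 markers were found, with a summed level of 1056.3 and 395.5 ppm in HS and 986.2 and 755.5 ppm in drug-loaded MNs. The sum of 3 mast cell markers was lowest in HS replicate 2 as well. The part of these markers in the values of FMOD, PRELP and OMD was not tested. DCN, OGN, ASPN and EPYC had their lowest level in HS replicate 1. So did the summed level of 4 mural markers, at 312.6 and 644.5 ppm in HS and 769.7 and 595.9 ppm in drug-loaded MNs. The summed levels of fibroblast and macrophage markers were also lowest in HS replicate 1, as was the T cell marker CD2. The part of these markers was not tested either.

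**Figure D3:**
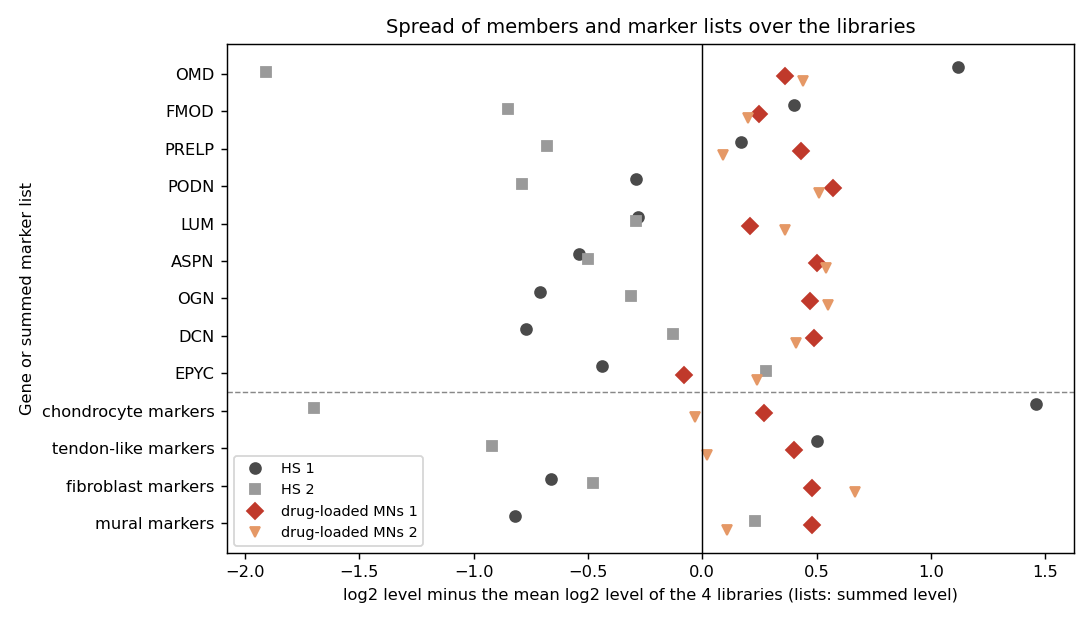
Level of each gene, and summed level of 4 marker lists, in each library, as the log2 level minus its mean over the 4 libraries. HS replicate 2 is far to the left for OMD (-1.91), FMOD (-0.85), PRELP (-0.68) and the chondrocyte markers (-1.70), whereas for DCN, OGN and the fibroblast markers both HS libraries lie left of both drug-loaded MNs libraries.

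The dermal source of these proteoglycans was described with 16 fibroblast markers that are neither members nor collagens, of which 6 were found (DPT, MFAP5, SFRP2, FAP, FBLN2 and CCDC80). In drug-loaded MNs all 6 were higher without overlap, and their median log2 fold change was 1.11. Each of them had an unadjusted p under 0.05 and 0 passed the adjusted threshold in limma. Their summed level was 412.8 and 467.4 ppm in HS and 911.8 and 1036.8 ppm in drug-loaded MNs. DPT, the dermatopontin gene, whose protein binds decorin, stood at 66.9 and 73.8 ppm in HS and at 193.9 and 165.2 ppm in drug-loaded MNs (log2 fold change 1.34, with a limma adjusted p of 0.257). MFAP5, a microfibril gene, had a log2 fold change of 1.33 and SFRP2, a Wnt modulator of fibroblasts, one of 2.32. SFRP2 was also the most uneven, at 20.9 and 76.9 ppm in HS.

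Set against these markers within each library, none of the proteoglycans was higher in drug-loaded MNs on average. The mean log2 level of the 6 markers was higher by 1.23 in drug-loaded MNs, more than any member. The log2 level of DCN minus this mean was 4.78 and 5.15 for the HS libraries and 4.75 and 4.52 for the treated ones, so the groups barely separated. LUM gave 4.54 and 4.26 under HS against 3.74 and 3.75 after treatment, lower by more, with a mean difference of -0.65. For OGN the difference was -0.21, for ASPN -0.20 and for PODN -0.17, where PODN overlapped. FMOD, PRELP and OMD overlapped too. EPYC had the largest difference, -1.08, with -1.62 and -1.20 under HS against -2.58 and -2.41 after treatment. SFRP2 weighed on this comparison. Without it, an alternative chosen after its values were seen, the other 5 markers differed by 1.01, and the difference was 0.01 for OGN, 0.02 for ASPN, 0.05 for PODN, -0.11 for DCN, -0.44 for LUM and -0.86 for EPYC. LUM and EPYC were lower relative to either set, but the sets share 5 markers. Scaled to these markers, the median over the 9348 tested genes stood at -1.11, or at -0.89 without SFRP2. EPYC lay close to this median and LUM above it, so a lower value here does not set either apart from other genes. With 2 libraries against 2, the smallest p that an exact two-sided permutation test allows is 0.333, and no p is given for these ratios.

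Most of these genes sit side by side in the genome. In the RefSeq annotation of the rabbit assembly mOryCun1.1, EPYC, KERA, LUM and DCN follow each other with no other protein-coding gene between them. ECM2, ASPN, OMD and OGN form another such row, and FMOD, PRELP and OPTC a further one. KERA (keratocan), ECM2 and OPTC (opticin) are relatives outside the list, and PODN has no relative next to it. The genome build behind the deposited values is unclear, so no positions are given.

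Along the EPYC to DCN row the log2 fold changes were 0.15 for EPYC, 0.32 for KERA, 0.58 for LUM and 0.90 for DCN. Neighbours in this order differed by less than the sum of their SEs, and the order was chosen for mention after it was seen. KERA, known as a keratan sulfate proteoglycan of the cornea, stood at 158.9 and 263.1 ppm in HS and at 262.8 and 249.7 ppm in drug-loaded MNs, with overlap. Within a library, however, KERA and DCN kept a steady ratio in each group. The log2 ratio of KERA to DCN was -3.27 and -3.18 for the HS libraries but -3.81 and -3.80 for the treated ones, which is a difference of -0.58 beside a pooled SD of 0.0437. Only ratios of members to DCN had been planned. The KERA ratio had the smallest pooled SD of the computed ratios to DCN, from 2 libraries per group. The ratio of EPYC to DCN also separated the groups, at -6.48 and -6.40 under HS against -7.39 and -6.98 after treatment. For the other 7 members the log2 ratio to DCN overlapped between the groups. A ratio within a library does not depend on how libraries were scaled, and it shows only that the genes differed by unequal amounts.

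In the row from ECM2 to OGN, the estimates of ECM2, ASPN and OGN lay close together, which was not tested. ECM2, a matrix protein with the same repeats, stood at 48.5 and 62.7 ppm in HS and at 145.1 and 105.4 ppm in drug-loaded MNs (log2 fold change 1.15, SE 0.26, with a limma adjusted p of 0.314). ASPN was at 1.03 and OGN at 1.02, and OMD between them had an estimate of 0.65 that the HS spread leaves without a direction. The log2 ratio of ASPN to OGN was -1.34 and -1.70 for the HS libraries and -1.49 and -1.53 for the treated ones, a mean difference of 0.01. FMOD and PRELP, the neighbours of the last row, likewise kept their ratio within its spread, at a difference of -0.06 beside a pooled SD of 0.245. Both ratios were chosen after the levels had been seen. OPTC stayed under 0.5 ppm in all libraries and was not tested.

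**Figure D4:**
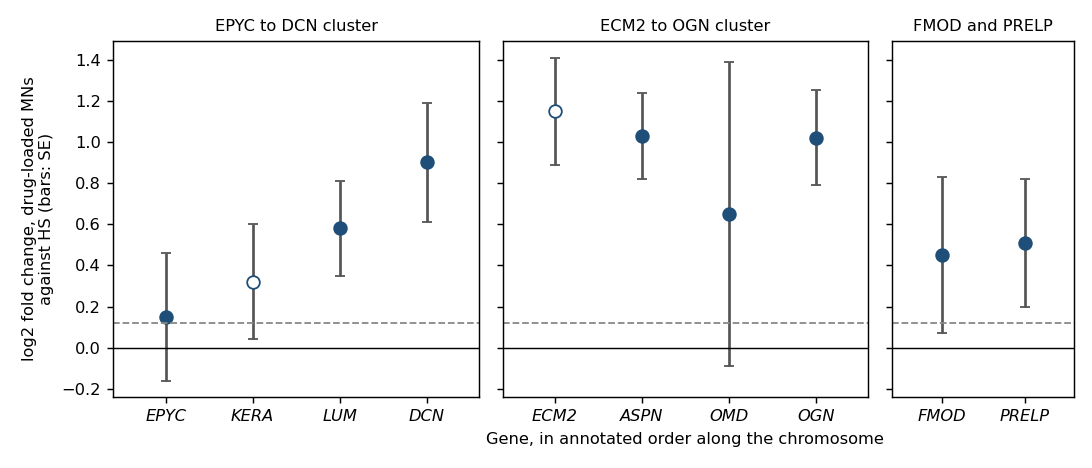
Log2 fold change with SE for the genes of 3 chromosomal rows, in their annotated order. Filled points are the listed genes, open points their relatives KERA and ECM2, and the dashed line is the median of all tested genes (0.12); estimates go from 0.15 to 0.90 along the EPYC to DCN row.

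Of the 8 other family genes looked up, 5 were found and 3 were tested (ECM2, KERA and TSKU). TSKU (tsukushi) had a log2 fold change of -0.08, and the median of the 3 was 0.32, or 0.69 without HS replicate 2 and 0.19 without HS replicate 1. NYX and OPTC were too low to test.

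The collagens that these proteoglycans coat had higher fitted values too, with log2 fold changes from 0.36 to 1.46. The smallest were those of COL12A1 (0.36, with overlap) and COL6A2 (0.53), below the members' median of 0.65. Of 12 fibrillar and fibril-associated collagen genes, 7 were found, all 7 were higher, 6 of them without overlap, and 5 had an unadjusted p under 0.05, with 0 past the adjusted threshold in limma. Their median log2 fold change was 0.92. COL3A1, the chain of type III collagen, which is plentiful in young scars, stood at 5716.6 and 4657.2 ppm in HS and at 14786.1 and 13576.8 ppm in drug-loaded MNs (log2 fold change 1.46, with a limma adjusted p of 0.264). COL5A2, which helps start fibrils, had a log2 fold change of 1.12, and COL14A1, a fibril-associated collagen that binds decorin, one of 0.92. The log2 ratio of DCN to COL3A1 was -1.90 and -0.97 for the HS libraries and -2.01 and -1.97 for the treated ones, a mean difference of -0.55 beside a pooled SD of 0.469. That of DCN to COL1A1 was 1.24 and 1.02 under HS against 0.92 and 0.35 after treatment, while that of DCN to COL1A2 overlapped. These 3 ratios were chosen after the levels had been seen.

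Of 22 genes of fibril assembly and crosslinking, 12 were found and 11 tested. The fitted value was higher for 10, and 5 had an unadjusted p under 0.05. The count of 10 was 6 without HS replicate 2, and the median of 0.55 was 0.39 without that library and 0.85 without HS replicate 1. PCOLCE2, counted as higher, had a lower mean level in drug-loaded MNs (ratio of means 0.861). LOX, the lysyl oxidase that fibromodulin brings to collagen, stood at 205.6 and 273.1 ppm in HS and at 442.7 and 512.3 ppm in drug-loaded MNs (ratio of means 1.995, limma adjusted p 0.314). ADAMTS3, a procollagen protease, had a log2 fold change of 0.97, and P4HA3, a prolyl hydroxylase, one of 0.78. Of 12 large and basement membrane proteoglycans, 7 were found, 5 had a higher fitted value, and 2 had an unadjusted p under 0.05 (median 0.55). HAPLN1, a link protein of cartilage and 1 of the 5, stood at 161.9 and 6.21 ppm in HS and had a lower mean level in drug-loaded MNs (ratio of means 0.868). The 2 genes were VCAN (versican), at 0.86, and HSPG2 (perlecan), at 0.55. SRGN (serglycin), carried in granules of blood cells, was at 0.47 with overlap.

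Genes that build the sugar chains were described as well. Of 25 genes for chondroitin and dermatan sulfate chains, 16 were found and 14 tested, 12 were higher, and 0 had an unadjusted p under 0.05 in limma. Their median log2 fold change was 0.27, with single genes up to 0.41 over all 4 libraries. The median was 0.04 without HS replicate 2 and 0.45 without HS replicate 1. The value of 0.41 belonged to UGDH, which makes the UDP-glucuronate for these chains, while DSEL, a dermatan sulfate epimerase, and CHSY1, a chondroitin synthase, were both at 0.32. DSE and CHST14 were not analysed here. Of 9 genes for keratan sulfate chains, the kind on LUM and FMOD, 8 were found and 6 tested, with 4 higher and 2 lower. The median was 0.23, or 0.03 without HS replicate 2 and 0.37 without HS replicate 1. B3GNT2, which extends the chain, stood at 143.1 and 178.2 ppm in HS and at 87.9 and 120.1 ppm in drug-loaded MNs, which gave a log2 fold change of -0.63 at a limma adjusted p of 0.527. It was the only chain gene that was lower at an unadjusted p under 0.05, which held for 1.39% of all tested genes. FUT8, a fucosyltransferase of N-linked sugars, had a log2 fold change of 0.84 without overlap. B3GNT7 had one of 0.78 with overlap and low levels, 2.46 and 0.93 ppm in HS and 2.33 and 4.88 ppm in drug-loaded MNs. TPST1 and TPST2, which sulfate the tyrosines of fibromodulin and osteomodulin, were not analysed here.

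Among growth factors and receptors that bind these proteoglycans, 17 of 23 genes were found and 16 tested. Of these 13 were higher, 6 with an unadjusted p under 0.05, and the median log2 fold change was 0.42. TGFBR3, the betaglycan receptor, stood at 72.0 and 81.4 ppm in HS and at 121 and 125 ppm in drug-loaded MNs (log2 fold change 0.67, with a limma adjusted p of 0.417). CD14, the co-receptor of the Toll-like receptors that sense free biglycan and decorin, was at 1.11. TLR2 was at 1.08 but had low levels, 1.2 and 1.9 ppm in HS and 5.8 and 3.2 ppm in drug-loaded MNs. BMP2 was the only lower gene with an unadjusted p under 0.05, at -0.74, and is named after its value was seen.

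Proteases that cut the family, with their inhibitors, were found for 15 of 19 genes and tested for 12. Of these 11 were higher, 5 with an unadjusted p under 0.05, and the median log2 fold change was 0.50. It was 0.43 without HS replicate 2 and 0.78 without HS replicate 1, where the filter on low values kept 11 genes. ADAMTS5, an aggrecanase that also cleaves small proteoglycans, stood at 26.1 and 37.4 ppm in HS and at 87.0 and 76.7 ppm in drug-loaded MNs (log2 fold change 1.36, with a limma adjusted p of 0.264). ADAMTS1, another of this family, stood at 88.9 and 109.1 ppm in HS and at 226.1 and 173.1 ppm in drug-loaded MNs. TIMP1, the inhibitor of metalloproteinases, was at 1.48, from 285.6 and 169.7 ppm in HS to 828.1 and 457.2 ppm in drug-loaded MNs. MMP7 and MMP8 were listed at 0 in all libraries.

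**Figure D5:**
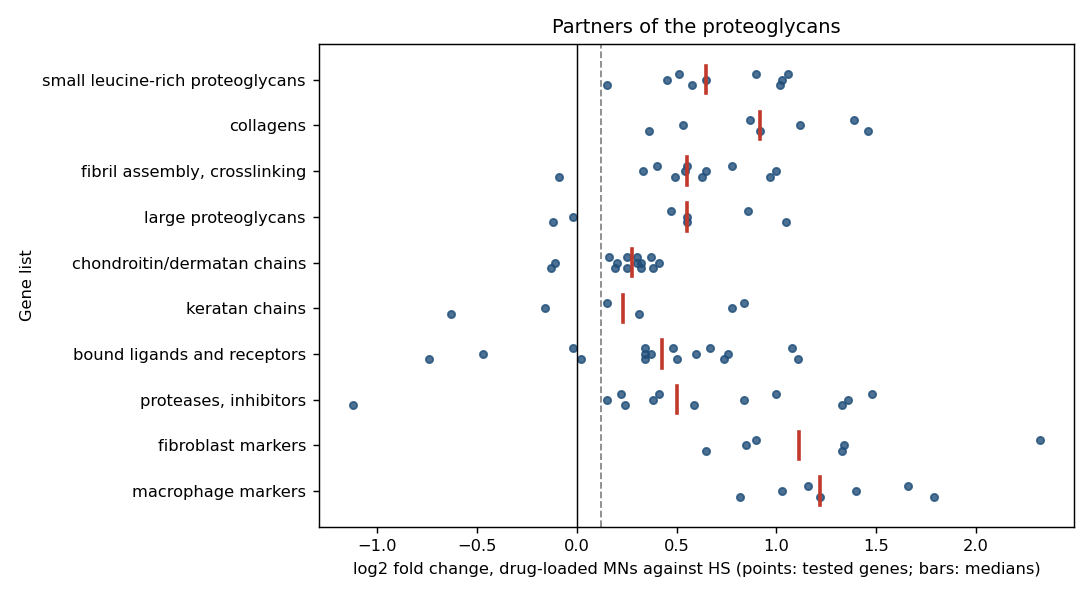
Log2 fold change, drug-loaded MNs against HS, of each tested gene (points) in the family, in 7 lists of genes tied to it and in 2 marker lists, with the list median (bar); the dashed line is the median of all tested genes (0.12). Medians run from 0.23 for keratan sulfate chain genes to 0.92 for collagens, and to 1.22 for macrophage markers.

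Macrophage markers were higher as well. Of 9 macrophage markers, 8 were found and 7 tested, and all 7 were higher without overlap and at an unadjusted p under 0.05. Their median log2 fold change was 1.22, and their summed level differed by 1.19 on the log2 scale. The first by p were AIF1 (1.22), CD163 (1.40) and MRC1 (1.03). Other marker lists were less even over the libraries. The median was 0.37 for 7 endothelial genes (PROX1 1.19, CDH5 0.92 and VWF -0.50 first by p), but 0.03 without HS replicate 1 and 0.71 without HS replicate 2. The summed endothelial level was lower in drug-loaded MNs, with a difference of -0.14 on the log2 scale. The median was 0.60 for 4 mural genes (ACTA2 0.71, DES 0.74 and MYH11 0.49), and was -0.02 without HS replicate 1 and 1.16 without HS replicate 2. The 3 mast cell genes had a median of 0.31 (KIT 0.77, HDC -0.49 and MS4A2 0.31), which turned to -0.65 when HS replicate 2 was left out and to -0.23 when drug-loaded MNs replicate 2 was. It was 1.02 with HS replicate 1 dropped and 0.86 with drug-loaded MNs replicate 1 dropped. Of T cell genes CD2 alone was tested, at 1.08. The median was -0.24 for 4 basal keratinocyte genes (KRT14 -0.30, KRT5 -0.34 and TP63 -0.18) and -0.07 for 5 suprabasal ones (KRT10 -0.35, SPINK5 -0.24 and KRT1 0.09). With 1 library left out, the basal median ranged from -0.49 (without drug-loaded MNs replicate 1) to 0.17 (without drug-loaded MNs replicate 2). The suprabasal median was -0.49 when HS replicate 1 was left out, -0.38 when drug-loaded MNs replicate 2 was, and 0.05 when HS replicate 2 was. Over 6 tendon-like or perichondrial genes it was 0.67 (MKX 0.93, CILP 0.54 and THBS4 0.81), or 0.22 without HS replicate 2, and no erythroid gene was high enough to test. The part of these markers in the values of the proteoglycans was not tested.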

How the data were processed

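The authors aligned and counted the reads with Cell Ranger (version 2.1.1 per the labels), filtered cells and used Seurat. The processing notes list the mouse build mm10, although the gene identifiers are rabbit ones. The deposited values are a relative expression signal that sums to 10000 per library. The file is named for FPKM, but whether gene length was divided out is not given in the sources used here, so levels are compared between libraries and not between genes. A batch correction is mentioned without saying whether it touched these values. How doublets were treated, and how cells were combined into 1 value per library, is not given in the sources used here.

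Values were rescaled to a total of 1000000 per library. Sequencing depth was unknown. Of the low values, 18.6% to 21.7% lay within 0.1 of whole steps of the smallest value, so reads could not be recovered and no counting interval was computed. Genes with a mean of at least 1 ppm were kept (9348), and log2(value + 1) was fitted in limma 3.58.1 under R 4.3.3 with a variance trend. P-values are two-sided with Benjamini-Hochberg adjustment and a threshold of 0.05. The pseudocount understates fold changes of low genes. The fit was checked on simulated data. Lists are described by counts and medians without a set test. 1 of the marker lists is not reported here.

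The test had been planned for FPKM. The members, gene lists, naming rule and alternatives were chosen with earlier results of these data known. Named were all members, the 3 genes of each list with the smallest p, relatives beside members, and the 5 genes with the most similar pattern. The alternatives were median ratio, quantile and fibroblast marker scaling (with SFRP2 and, chosen after the data were seen, without it), pseudocounts of 0.1 and 5, a minimum mean of 5 ppm in place of 1 or none at all, no variance trend, a replicate block, and leaving out each library.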

Additional observations from a re-analysis of the deposited data

How the results depend on the processing

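The number of members past the adjusted threshold (0) was also 0 under median ratio scaling and quantile normalization, each pseudocount and filter, without the variance trend, and with any 1 library left out, where the lowest adjusted p of a member in limma was 0.208. It was 1 (EPYC, lower) when libraries were scaled to the fibroblast markers or to those other than SFRP2. EPYC then lay close to the all-gene median, at -1.08 beside -1.11 and at -0.86 beside -0.89, so the call does not set it apart. The number of members was 4 (DCN, OGN, ASPN and PODN) with the replicate number as a block. Same-numbered libraries shared only a number, with deviations from the group means that correlated at 0.222 across 9348 genes. The block left 1 residual degree of freedom. For all genes the count of 4 was 0 with no filter, a pseudocount of 5, quantile normalization or median ratio scaling, 1 without trend, 241 with the block, and 0 (without HS replicate 1) to 75 (without drug-loaded MNs replicate 2) with 1 library left out. It was 7570 and 5704 under the fibroblast scalings, which shift every gene by construction. Members at an unadjusted p under 0.05 (5) were 1 under both fibroblast scalings and 3 to 6 with 1 library left out, 3 being without drug-loaded MNs replicate 1. The members' median (0.65) was 0.52 under median ratio scaling, 0.78 with a pseudocount of 0.1, 0.57 to 0.93 with 1 library left out, and -0.58 and -0.36 under the fibroblast scalings. The difference of the sums (0.77) was 0.63 under median ratio scaling, 0.64 to 0.90 with 1 library left out, and -0.46 and -0.24 under the fibroblast scalings. Median ratio scaling moved the median of all genes from 0.12 to -0.01. Relative to all 6 fibroblast markers, log2 fold changes were -0.33 for DCN, -0.65 for LUM, -0.78 for FMOD, -0.21 for OGN, -0.20 for ASPN, -0.72 for PRELP, -0.58 for OMD, -0.17 for PODN and -1.08 for EPYC. Without SFRP2 they were -0.11 for DCN, -0.44 for LUM, -0.57 for FMOD, -0.50 for PRELP, -0.36 for OMD and -0.86 for EPYC. With 1 library left out, the sign also turned for EPYC (-0.19 to 0.50), FMOD (-0.17 to 1.06) and OMD (-0.69 to 1.99), whereas PRELP ranged from 0.09 to 0.93. Where a group was left with 1 library, it was assumed to vary like the other. The edgeR alternative was not run because reads could not be recovered.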

Other observations

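Genes outside the family with the most similar pattern were looked up over the 4 libraries among 5512 genes with a symbol and a mean of at least 10 ppm. Likeness was the Euclidean distance between log2 levels centred over the libraries and the mean centred profile of the 9 proteoglycans, which was -0.16 and -0.55 for the HS libraries and 0.35 and 0.36 for the treated ones. The nearest were AIFM2 (distance 0.073), CHRNE (0.093), FBXL7 (0.106), SOCS2 (0.106) and CCDC80 (0.108). CCDC80, a secreted matrix protein of fibroblasts that was also among the fibroblast markers, stood at 148.7 and 124.3 ppm in HS and at 213.8 and 214.6 ppm in drug-loaded MNs. SOCS2, a suppressor of cytokine signalling, stood at 18.3 and 12.6 ppm in HS and at 26.1 and 27.1 ppm in drug-loaded MNs. With 4 libraries many genes lie near any profile, and the distances are a description.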
